A study of Homo sapiens with 6 samples.

Results

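The genes described here are 10 cytokine, feedback and subunit genes of the NF-kB pathway: IL6, CXCL1, CXCL2, CXCL8, CCL2, NFKBIA, TNFAIP3, RELB, NFKB1 and NFKB2. They were found by gene symbol in a table of 25992 genes, with 1 row each, and all 10 passed the filter on low counts that 12944 genes passed. Total RNA was sequenced from 786-O cells. This established human line comes from a clear cell renal carcinoma, is known for its loss of the VHL tumour suppressor, and is labelled wild type. In the copper group, 3 cultures had been adapted to copper in the medium. The control group of 3 cultures received serum handled alike without copper. Copper had been bound to serum proteins by incubating serum with copper sulfate, and both groups were grown in the same serum-containing medium. The copper concentration is 30 uM in the series text and 30, 31 and 32 uM in the treatment labels of the 3 copper cultures. These were treated as 1 group. The labels do not say whether replicates were grown or adapted separately, so the p-values measure the spread between these samples, which may be technical.

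NF-kB is a family of dimeric transcription factors held in the cytoplasm by inhibitor proteins. Inflammatory receptors activate a kinase complex that marks the inhibitor for destruction. The freed dimer then turns on cytokine genes together with genes for its own inhibitors, which close a feedback loop. A slower, non-canonical branch works through processing of the NFKB2 precursor and its partner RELB. In renal carcinoma, cytokines such as IL6 and CXCL8 are known for drawing in leukocytes and supporting vessel growth.

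The DNA letters that NF-kB dimers bind are shown first, for those of the 10 genes whose promoter could be searched. RefSeq promoter windows on GRCh38.p14 matched 8 of the 10 genes, all but CCL2 and RELB, which were not searched. The 250 bases before each start were searched on both strands for the kappaB consensus and for GGAATTTCC, which overlaps a consensus match in CXCL1, CXCL2, NFKBIA and NFKB1 and stands without one in CXCL8. Every one of the 8 genes held a match in at least 1 window. Of all 35116 windows 5.39% did, but that share is per window and not per gene. NFKB1 had 2 windows and NFKB2 had 3. The genes were chosen as NF-kB genes, so this describes the choice and tests nothing. Stretches of at most 30 bases around matches are given 5′ to 3′ on the gene's strand, with the match in capitals.
IL6: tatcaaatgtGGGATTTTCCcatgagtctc
CXCL8: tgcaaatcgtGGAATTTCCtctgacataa
CXCL1: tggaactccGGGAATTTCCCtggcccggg
CXCL2: tggagctccGGGAATTTCCCtggcccggg
NFKBIA: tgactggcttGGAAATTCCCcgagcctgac
TNFAIP3: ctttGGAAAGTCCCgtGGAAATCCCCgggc
NFKB1: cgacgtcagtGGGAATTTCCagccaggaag
NFKB2: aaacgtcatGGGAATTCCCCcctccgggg

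The IL6 stretch lies at chr7:22727117-22727146 on the plus strand, with its match beginning 73 bases before the start. The CXCL8 stretch lies at chr4:73740468-73740496 on the plus strand, 91 bases before the start, and the only AP-1 letters found in a window of the 10 genes, TGANTCA, lie 137 bases before the same start. By comparison, 6.57% of all windows hold TGANTCA. The paralogs CXCL1 (chr4:73869305-73869333, plus strand) and CXCL2 (chr4:74099254-74099282, minus strand) carry the same capitals 79 and 78 bases before their starts. The NFKBIA stretch is at chr14:35404811-35404840 on the minus strand and reads the site in the opposite direction, 81 bases before the start. TNFAIP3 (chr6:137867188-137867217, plus strand) carries a pair of sites, also in the opposite direction, at 67 and 55 bases. NFKB1 (chr4:102501300-102501329, plus strand) has its site at 49 bases. Of 3 windows of NFKB2, the second holds the printed site (chr10:102394462-102394490, plus strand) at 107 bases and a further match at 78 bases, the third holds 2 more, and the first holds none. In GENCODE 29 the stretches of CXCL2, TNFAIP3, NFKB1 and NFKB2 overlap an exon of another transcript of the same gene, and those of IL6, CXCL8, CXCL1 and NFKBIA overlap no exon. The NFKB1 stretch also overlaps an exon of AF213884.3 on the opposite strand. A match to these letters is not a measured binding site.

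The libraries held 16301772 to 25079913 counts. Replicate 3 of both groups stood apart from the other 4 libraries on the first principal component of log2 CPM (counts scaled to library size), at 41.2 and 17.6 against -17.6 to -11.7, and that component carried 57.9% of the variance. The genes described here were therefore also read with the replicate number as a block and in replicates 1 and 2 alone. So were some of the other genes named below. The lists of other pathway genes were counted only in all libraries together, without and with the block. Their counts were not read without replicate 3. The 5 genes taken as a check of copper exposure were chosen with earlier results of these data known, so their values describe that choice and test nothing. They were higher in copper in every library than in any control library, as were 5.45% of all tested genes. Their log2 fold changes ran from 1.07 for MT2A to 2.02 for MT1X. All 5 were called with the block, where 0.170% of all genes were called, but not without it. Markers of the renal line, among them PAX8, VIM and KRT8, were present in both groups (7 of 7 tested, summed level 4200 to 5120 CPM in copper and 4540 to 4710 CPM in control). Of 7 leukocyte markers 1, CSF1R, passed the filter, and the list summed to 4.33 to 10.7 CPM in copper and 4.17 to 6.34 CPM in control, with PTPRC at 0 to 4 counts. Of 5 fibroblast markers 2 passed (6.58 to 8.58 CPM in copper, 6.92 to 12.5 CPM in control), with DCN at 0 to 4 counts. None of 4 endothelial markers passed (0.432 to 0.549 CPM in copper, 0.294 to 0.996 CPM in control).

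For most of the 10 genes the estimated difference between copper and control was small, but for IL6, CXCL1 and CXCL2 its interval was wide. CCL2, the chemokine that recruits monocytes, was 2.01-fold lower in copper, and the other 9 had log2 fold changes between -0.22 and 0.23. By edgeR's quasi-likelihood test, 0 of the 10 differed at an adjusted p under 0.05, as did 0.00% of the 12944 genes tested. With the replicate block it was again 0 of 10, where 0.170% of all genes were called (0.0464% as lower in copper). DESeq2, which called 0.209% of all genes, called 0 of the 10, and so did limma-voom. An unadjusted p under 0.05 was reached by CCL2 without the block (1 of 10, against 3.52% of all genes, 1.59% lower in copper) and by CCL2 and CXCL8 with it (2 of 10, both lower, against 8.41% of all genes, 4.24% lower in copper). The median log2 fold change of the 10 was 0.0043, with 5 higher and 5 lower, and that of all tested genes was 0.0052. Taken by replicate number the 10 genes were less balanced: in replicate 2, 9 of the 10 were lower in copper (median log2 difference -0.243, against 0.007 for all tested genes), and in replicates 1 and 3, 5 of the 10 were (medians -0.029 and -0.005). The count changed only for CCL2 in the settings named with it below. As these are bulk libraries, fewer cells that express a gene and less RNA per cell cannot be told apart.

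**Figure D1:**
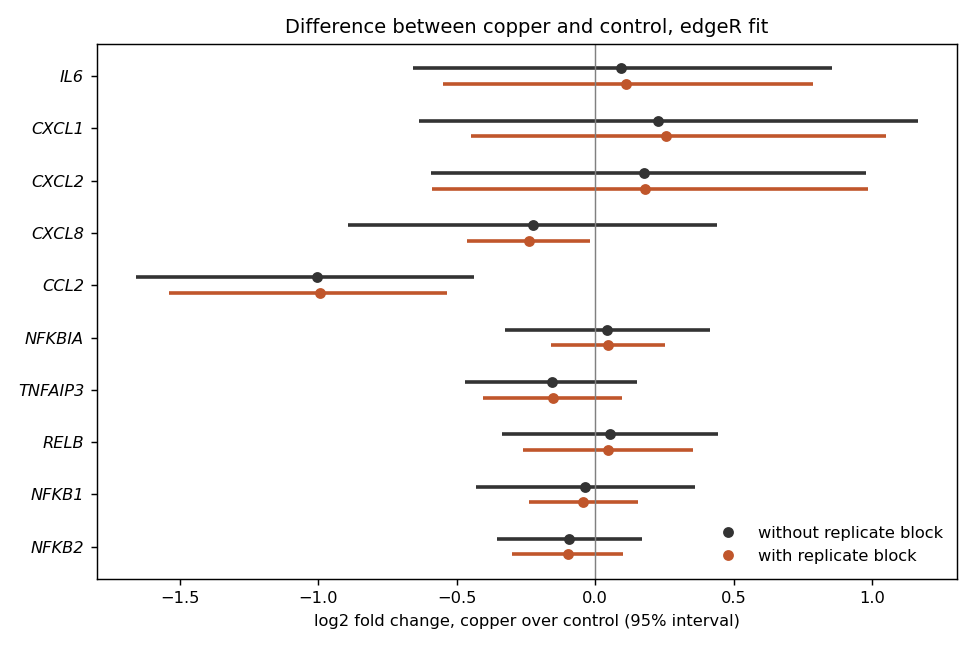
Log2 fold change of copper over control for each of the 10 genes (x axis) with its 95% interval, from the edgeR fit without (dark) and with (orange) the replicate number as a block. The CCL2 interval lies below 0 in both fits (-1.66 to -0.44 and -1.54 to -0.54), the CXCL8 interval lies below 0 only with the block, and the others cross 0.

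Among the cytokines, CCL2 (Entrez 6347; chromosome 17, 34255285 to 34257201) had 23, 36 and 32 counts in copper replicates 1, 2 and 3 and 97, 85 and 49 counts in the control replicates. Scaled to library size these were 1.40, 2.02 and 1.73 CPM in copper and 3.90, 4.17 and 2.57 CPM in control. Every copper library lay below every control library, with copper replicate 2 and control replicate 3 closest. It was the only gene of the 10 whose groups did not overlap, where 5.35% of all tested genes lay lower in copper without overlap and 5.45% higher. Means were 1.72 ± 0.309 CPM in copper and 3.55 ± 0.857 CPM in control (SD, n = 3). On the log2 scale copper differed from control by -1.01 (SE 0.26, 95% interval -1.66 to -0.44). By edgeR's quasi-likelihood test the unadjusted p was 0.00441 and the adjusted p 0.984. The blocked edgeR fit gave an unadjusted p of 0.00137 and an adjusted p of 0.189. By replicate number the log2 difference was -1.41, -1.01 and -0.55. CCL2 was called from replicates 1 and 2 alone (log2 fold change -1.18, adjusted p 0.0380 by edgeR, where 0.856% of genes were called, 0.355% as lower). So it was with the block without replicate 3 (-1.19, adjusted p 0.00151, where 7.03% of genes were called). That fit has the 4 libraries of replicates 1 and 2 and a replicate term besides group, so little is left to measure spread. It called 912 genes, against 111 from the same libraries without the block. The block with no filter also called CCL2 (-1.01, adjusted p 0.000585, with 243 genes called in all). Whether the difference passed therefore changed with replicate 3 and, in the blocked fit, with the filter, while its sign was the same in all 3 pairs. Without the block, leaving out the filter did not make it pass. Of the fibroblast markers, COL1A1 moved in the same direction (3.42 ± 1.23 CPM in copper, 6.53 ± 2.42 CPM in control, log2 fold change -0.90, adjusted p 1.00, 0.130 with the block), LUM was at 0.51, and DCN stayed at 0 to 4 counts; their part in the CCL2 difference was not tested.

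CXCL8, the neutrophil chemokine interleukin 8 (Entrez 3576; chromosome 4, 73740569 to 73743716), was the most abundant of the 5 cytokines. Its levels were 32.5, 22.3 and 15.8 CPM in copper replicates 1, 2 and 3 and 34.2, 28.1 and 19.9 CPM in control. The groups overlapped, and in both of them replicate 1 was highest and replicate 3 lowest. Copper averaged 23.5 ± 8.41 CPM and control 27.4 ± 7.16 CPM (SD, n = 3), which is -0.22 on the log2 scale (SE 0.29, 95% interval -0.89 to 0.44, adjusted p 1.00). Leaving out copper replicate 1 moved that value to -0.53, and leaving out copper replicate 3 moved it to -0.0093. Taken pair by pair, copper was lower by each number, at -0.07, -0.33 and -0.33. With the block the interval narrowed to -0.46 to -0.02 around -0.24, with an unadjusted p of 0.0377 and an adjusted p of 0.573. Of the 10 genes, CXCL8, CCL2 and TNFAIP3 were lower in all 3 pairs, as were 17.0% of all tested genes, and CXCL1 was higher in all 3, as were 17.7%.

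IL6, a cytokine that signals through STAT3 (Entrez 3569; chromosome 7, 22727200 to 22731998), was low, at 23 to 65 counts. It was at 2.13, 1.63 and 2.54 CPM in copper and 2.61, 2.01 and 1.21 CPM in control. The highest and the lowest value were both in control libraries. Means of 2.10 ± 0.456 and 1.94 ± 0.707 CPM (SD, n = 3) gave a log2 fold change of 0.09 (SE 0.32, 95% interval -0.66 to 0.85, adjusted p 1.00). Replicates 1 and 2 differed by -0.28 and -0.29 and replicate 3 by 1.01, so the sign of the mean came from replicate 3, and without it the log2 fold change was -0.30 (adjusted p 0.661). IL6 overlaps an antisense gene, IL6-AS1, and reads of both cannot be told apart if the authors' counting, which is not described, did not use strand.

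CXCL1 and CXCL2, which like CXCL8 attract neutrophils, were the least abundant of the 10. CXCL1 (Entrez 2919; chromosome 4, 73869393 to 73871308) had 13, 12 and 9 counts in copper and 17, 12 and 6 in control, or 0.792, 0.673 and 0.486 CPM against 0.684, 0.588 and 0.314 CPM. Its log2 fold change was 0.23 (SE 0.39, 95% interval -0.63 to 1.17, adjusted p 1.00). CXCL2 (Entrez 2920; chromosome 4, 74097040 to 74099195) had 28, 16 and 20 counts in copper and 20, 27 and 21 in control, or 1.71, 0.897 and 1.08 CPM against 0.804, 1.32 and 1.10 CPM. Both genes overlapped between groups. For CXCL2 the log2 fold change was 0.18 (SE 0.34, 95% interval -0.59 to 0.98, adjusted p 1.00), and copper replicate 1 alone lay above every other library. Without that library the value was -0.10. The split of counts between the paralogs is uncertain, since 4.81% of the 50-base stretches of CXCL1 transcripts and 12.5% of those of CXCL2 also occur in transcripts of another gene of the trio CXCL1, CXCL2 and CXCL3.

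**Figure D2:**
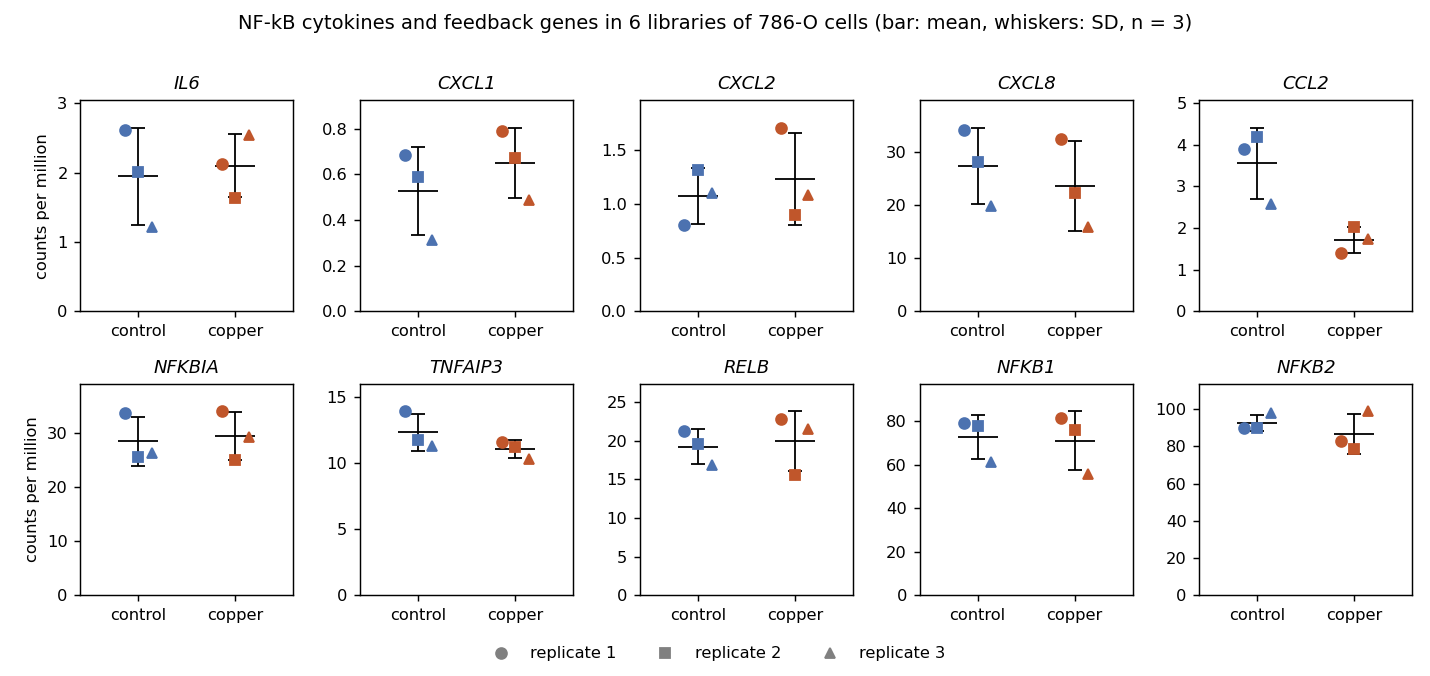
CPM (y axis, each panel from 0) of the 10 genes in the 3 control and 3 copper libraries. Symbols mark the replicate number, the short bar the mean and the whiskers the SD. Only the CCL2 groups do not overlap, with copper at 1.40 to 2.02 and control at 2.57 to 4.17 CPM.

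The 2 feedback inhibitors were close to control. NFKBIA encodes the inhibitor that holds NF-kB in the cytoplasm and is among its fastest targets (Entrez 4792; chromosome 14, 35401514 to 35404749). It stood at 34.1, 25.1 and 29.3 CPM in copper and 33.8, 25.6 and 26.3 CPM in control. Replicate 1 was highest and replicate 2 lowest in each group. The means of 29.5 ± 4.54 and 28.6 ± 4.52 CPM (SD, n = 3) gave a log2 fold change of 0.04 (95% interval -0.33 to 0.41), narrowed by the block to 0.05 (-0.16 to 0.25, adjusted p 0.883). TNFAIP3 encodes A20, an enzyme that edits ubiquitin chains and shuts the pathway down (Entrez 7128; chromosome 6, 137867259 to 137883312). It was at 11.6, 11.2 and 10.3 CPM in copper and 13.9, 11.7 and 11.3 CPM in control, with copper replicate 1 above control replicate 3. Its means were 11 ± 0.657 and 12.3 ± 1.42 CPM and its log2 fold change -0.16 (95% interval -0.47 to 0.15, adjusted p 1.00), with an adjusted p of 0.674 in the blocked fit.

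The 3 subunit genes were also close to control. NFKB1, the source of p50 (Entrez 4790; chromosome 4, 102501359 to 102617302), was at 81.3, 76.0 and 55.7 CPM in copper and 79.3, 77.9 and 61.0 CPM in control. Both groups dropped in replicate 3, and the log2 fold change was -0.04 (95% interval -0.43 to 0.36, or -0.24 to 0.15 with the block). NFKB2, the source of p52 (Entrez 4791; chromosome 10, 102394110 to 102402529), was at 83.1, 78.4 and 98.9 CPM in copper and 90.1, 89.9 and 97.8 CPM in control. Here replicate 3 was the highest of both groups, and the log2 fold change was -0.09 (95% interval -0.36 to 0.17, or -0.30 to 0.10 with the block). RELB, its partner (Entrez 5971; chromosome 19, 45001464 to 45038192), was at 22.8, 15.6 and 21.6 CPM in copper and 21.3, 19.6 and 16.9 CPM in control. The copper libraries included both its highest and its lowest value. Its log2 fold change was 0.05 (95% interval -0.34 to 0.45, or -0.26 to 0.35 with the block). Adjusted p-values by edgeR were 1.00 for all 3 without the block and 0.890, 0.729 and 0.926 with it. The intervals of these 3 genes and of NFKBIA and TNFAIP3 exclude a doubling or a halving, which is 1 on the log2 scale, in both fits.

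**Figure D3:**
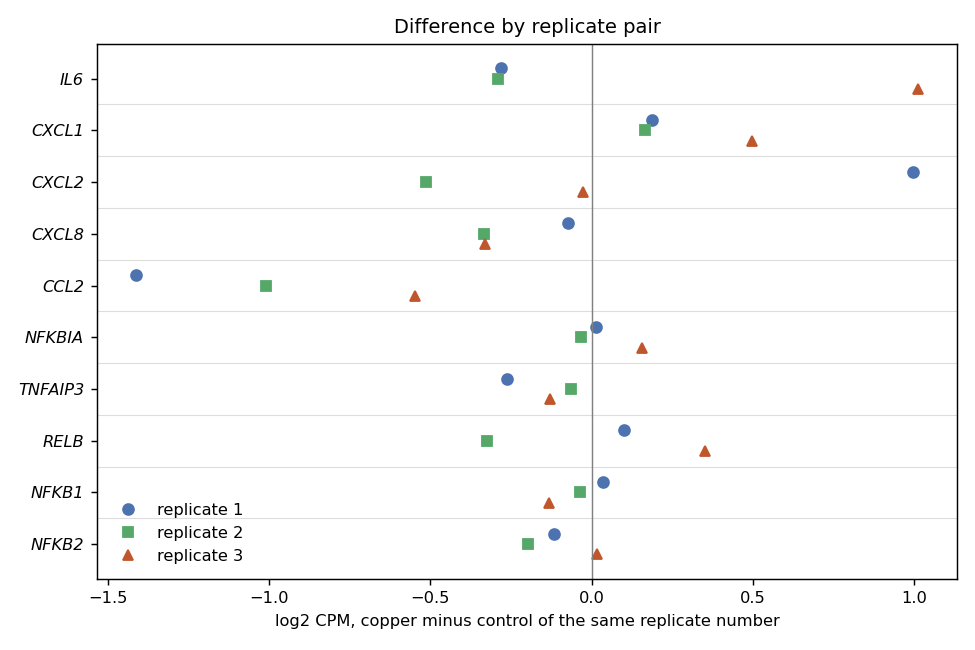
Difference in log2 CPM between copper and control of the same replicate number (x axis) for each of the 10 genes, 1 symbol per replicate. CCL2 lies left of 0 in all 3, and IL6 lies at -0.28 and -0.29 in replicates 1 and 2 and at 1.01 in replicate 3.

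Per kilobase of exon, NFKB2 had the highest level of the 10, at 20 CPM per kilobase averaged over the 6 libraries (range 17.5 to 22.1), with no overlap with the next gene. NFKBIA (12.2, range 10.6 to 14.4), NFKB1 (11.5, 8.91 to 13.0), CXCL8 (11.2, 6.95 to 15) and RELB (6.47, 5.16 to 7.51) followed on that scale, each overlapping its neighbour. TNFAIP3 came next at 2.31 (2.04 to 2.76), below every value of RELB. CCL2 (1.32, 0.706 to 2.10), IL6 (0.977, 0.582 to 1.26), CXCL2 (0.768, 0.536 to 1.14) and CXCL1 (0.455, 0.243 to 0.611) ended the order, again with neighbours overlapping. On this scale the range of CXCL8 overlapped those of NFKBIA, NFKB1 and RELB, and the other 4 cytokines had the 4 lowest means, with CCL2 overlapping TNFAIP3.

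Several of the genes differed more between replicate 3 and the other replicates than between copper and control. In replicate 3 of both groups CXCL1, CXCL8 and NFKB1 lay below all 4 other libraries, with log2 differences from them of -0.662, -0.699 and -0.430, and NFKB2 lay above them, with a log2 difference of 0.207. Such a position was common: 23.8% of all tested genes were lower and 24.2% higher in replicate 3 of both groups. Correlations over the 6 libraries are a description only, since the libraries differ in depth and replicate 3 of both groups is shifted. Log2 CPM of CXCL8 followed NFKB1 (Pearson r 0.917) and TNFAIP3 (0.821). RELB followed NFKBIA (0.824) and IL6 (0.803), and NFKB2 ran against NFKB1 (-0.778). CCL2 followed none of them above 0.631, its value with TNFAIP3. Among 10285 other genes of at least 5 CPM, those most like CXCL8 were NUP88 (r 0.992), CRLS1 (0.992) and MTA2 (0.985), and those most like NFKB2 were VPS51 (0.998), FANCA (0.997) and SHMT2 (0.995). Values over 0.9 were reached by 260 and 494 genes.

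The rest of the pathway was read from lists of genes upstream and downstream of NF-kB, of which the subunit and the inhibitor list also hold genes of the 10. Of 124 listed genes outside the 10, 96 passed the filter, and edgeR called 0 of them without the block and 0 with it. Their median log2 fold change was -0.00095, with 47 higher and 49 lower in copper, from -0.36 to 0.60. An unadjusted p under 0.05 was reached by 4 of the 96 (4.17%) without the block, near the 3.52% of all tested genes, and by 8 (8.33%) with it, near the 8.41% of all tested genes. Without the block these were VCAM1 and MAP3K14 above control and IL1RAP and BIRC2 below it, and the block added ICAM1, BIRC3, TNFRSF9 and ZFP36L2, all below control. MAP3K14, the kinase of the non-canonical branch (log2 fold change 0.26), ICAM1, BIRC3 and TNFRSF9 are named because of these counts, after their values were seen. For 5 listed genes, CCL5, CFB, IER3, RNF31 and TNF, the position in the table does not overlap the one in RefSeq, and what their counts cover was not tested. All 10 genes described here overlap theirs.

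Upstream, the receptors had 9 tested genes of 12, 0 of them called, with a median of -0.0156. The most abundant were OSMR, EGFR and TNFRSF1A, the main receptor for tumour necrosis factor, with log2 fold changes of -0.14, -0.21 and 0.05. IL1RAP, the shared chain of the interleukin 1 receptor, was at 106 ± 7.34 CPM in copper and 134 ± 22.4 CPM in control (SD, n = 3), and its log2 fold change was -0.33 (SE 0.13, adjusted p 1.00, 0.442 with the block). All 22 adaptors and kinases were tested and 0 were called, with a median of 0.0502. IRAK1 and RBCK1 were at -0.0083 and 0.11, and BIRC2, a ubiquitin ligase of the receptor complex, was at 141 ± 10.7 CPM in copper and 173 ± 11.3 CPM in control (-0.30, SE 0.10, adjusted p 1.00, 0.439 with the block). With the block and without replicate 3, where 7.03% of all genes passed, IL1RAP and BIRC2 were called at -0.22 and -0.21. RELA, the main activating subunit, had a log2 fold change of -0.10 (SE 0.09), and the 5 subunits had a median of -0.0926 with 0 called.

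Among inhibitors and feedback genes, 15 of 16 were tested and 0 called, with a median of 0.0329. The A20 partner TNIP1, TAX1BP1 and the deubiquitinase OTULIN, the most abundant, had log2 fold changes of 0.05, 0.04 and -0.17, and BCL3, a nuclear relative of the inhibitors, one of -0.19 (SE 0.14). Of 8 genes for proteins that bind and stabilise or destroy cytokine mRNA, all tested, 0 were called, with a median of -0.0512. ZFP36L1, KHSRP and ELAVL1 were at -0.04, -0.07 and -0.0008, and ZFP36L2 was at -0.36 (SE 0.16, adjusted p 1.00). BCL3 was called with the block without replicate 3 (-0.33, adjusted p 0.00372), where 7.03% of all genes were called.

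Downstream, 19 of 25 other target genes were tested and 0 called, with a median of 0.0722. VCAM1, the adhesion molecule that binds leukocyte integrins, was at 49.6 ± 10.2 CPM in copper and 32.6 ± 4.20 CPM in control (SD, n = 3) without overlap, as were 5.45% of all tested genes, and its log2 fold change was 0.60 (SE 0.17, adjusted p 1.00, 0.321 with the block). It passed in the blocked DESeq2 fit (adjusted p 0.0456, with 58 genes called in all), with the block and no filter (3.82e-05, 243 genes) and with the block without replicate 1 (0.0356, 74 genes). GADD45B, the mitochondrial superoxide dismutase SOD2 and the caspase inhibitor CFLAR were at -0.09, -0.0049 and 0.07. Of 22 other cytokines and chemokines 9 were tested, with a median of 0.0836 and 0 called. IL32, CSF1, a macrophage growth factor, and LIF, a relative of IL6, were at -0.01, 0.17 and 0.15, and CX3CL1 at -0.29 (SE 0.26). A list of 8 receptors of IL6 and of the chemokines and readouts of STAT3 had 4 tested genes, 0 of them called. These were IL6R, IL6ST, STAT3 and SOCS3, and the 4 chemokine receptors of the list did not pass the filter. The median was -0.148, with log2 fold changes of -0.09 for STAT3, -0.20 for the receptor chain IL6ST and -0.21 (SE 0.15) for SOCS3, the feedback inhibitor of STAT3. All 4 values were below 0, as were those of 6287 of the 12944 genes tested. AP-1 and early response genes had 11 tested of 12, a median of -0.0011 and 0 called, with FOSL2, JUN, FOSL1 and JUND at -0.18, 0.09, 0.31 and 0.23. With the block and without replicate 3, where 7.03% of all genes were called, CSF1 (0.18), GADD45B (-0.19) and SOCS3 (-0.34) passed as well. Here and above, only the named genes were read in that fit. No share of the 96 tested pathway genes can therefore be set beside the 7.03%.

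**Figure D4:**
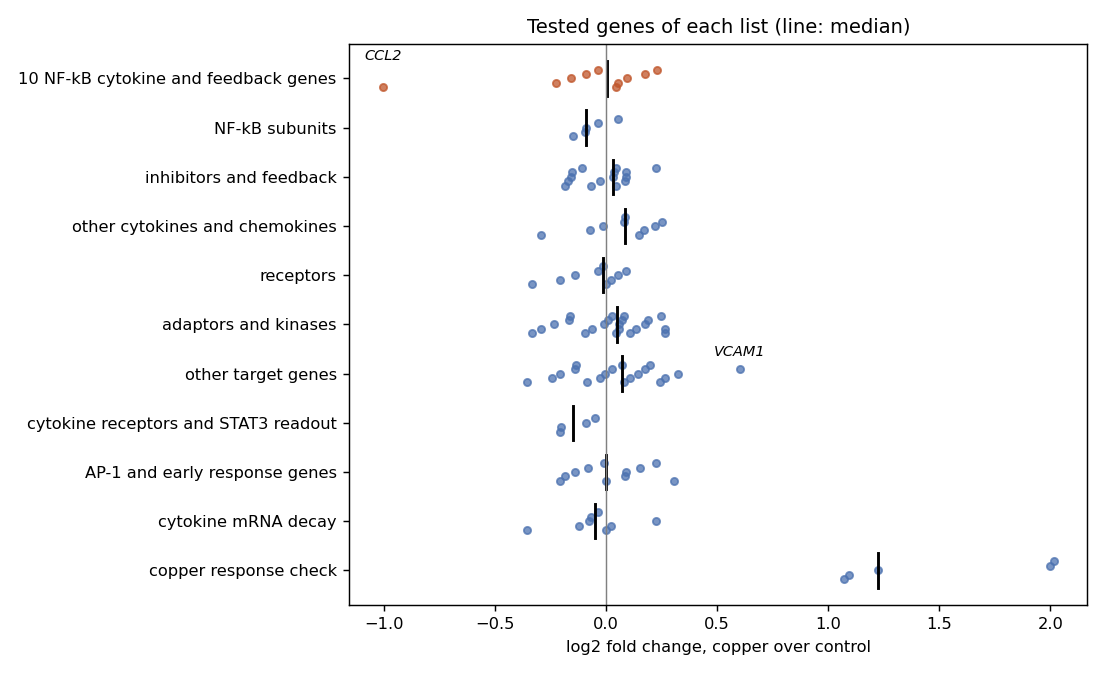
Log2 fold change of copper over control (x axis) for each tested gene of the 10, of the pathway lists and of the copper check list, with a line at each median. CCL2 at -1.01 and VCAM1 at 0.60 lie outside the other pathway genes, and the 5 copper check genes lie between 1.07 and 2.02.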

How the data were processed

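The authors deposited raw gene counts for 6 libraries of 786-O cells. Per the submitters' processing notes, STAR, FastQC, edgeR and GRCh38 were used. The counting program, its use of strand and its treatment of reads matching several genes are not given in the sources used here. Positions are the table's, with 1 added to its starts, which count from 0. Genes without a symbol (5, 0.000814% of counts) were left out.

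The 10 genes and all lists were chosen with earlier results of these data known. The comparison was fitted in edgeR 4.0.16 (R 4.3.3) after filterByExpr (minimum count 10, minimum total 15) and TMM scaling, by its quasi-likelihood test, robust option on, with no term besides group. Benjamini-Hochberg adjustment ran over 12944 genes, and a gene was called at an adjusted p under 0.05. The prior count behind fold changes was 2. Standard errors and 95% intervals came from the unshrunk coefficient and the F statistic. CPM are counts scaled to TMM library sizes. Levels per kilobase used the union of GENCODE 29 exons. Named genes were the 10, and in each list the gene with the smallest p and the 3 of highest CPM. On simulated counts the fit was checked for the sign and the median size of known doublings and halvings. It was not checked there for its rate of false calls.

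Both groups carry replicate numbers 1 to 3, with nothing in the labels to say what a number shares. Deviations from group means of same-numbered libraries correlated at 0.462, 0.396 and 0.652 across genes, each over 0.1, which was taken as pairing. Replicates 1 and 2 also correlated across numbers (0.317 and 0.272), and replicate 3 with the others at -0.557 to -0.449, so these values separate replicate 3 more than they separate 1 from 2. A blocked fit on that number is therefore given where it bears on a result. Alternatives were DESeq2 1.42.0, limma-voom (limma 3.58.1), other scalings and filters, the block, a replicate 3 term, and each library left out. No libraries of a group agreed within sampling noise (lowest chi-square per degree of freedom 5.40), so each counted as 1 sample.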

Additional observations from a re-analysis of the deposited data

How the results depend on the processing

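The number of the 10 genes called was 0 in 23 of 26 alternatives. It was 1, CCL2, in replicates 1 and 2 alone, with the replicate block without replicate 3, and with the block and no filter. Over all genes, edgeR called 0 in the unblocked comparison (455 at an unadjusted p under 0.05) and 12 when unfiltered. DESeq2 called 27, the replicate block 22, and both together 58. A replicate 3 term gave 35 genes, and the 4 libraries of replicates 1 and 2 gave 111. Both settings single out replicate 3, which was seen to stand apart in these data. Further alternatives chosen after seeing the data called 19 with the block in limma-voom and 25 with the block and total counts. They called 243 with the block and no filter and 22 with the block and RLE factors. With the block, leaving out replicate 1, 2 and 3 called 74, 77 and 912. Each of these 3 fits has 4 libraries and a replicate term besides group, so little is left to measure spread. Leaving out each library without the block called 0 to 15. The median log2 fold change of the 10 genes ranged from -0.095 to 0.0577 in those fits and was -0.127 in replicates 1 and 2 alone, a move about as large as the SD of the medians of the pairs (0.131). Added to the unblocked edgeR comparison of all 6 libraries with its filter, the block changed no call among the 10 genes or the listed pathway genes. Among the 10 and the other named pathway genes, it added CCL2 and VCAM1 with no filter, and without replicate 3 it added BCL3, CSF1, IL1RAP, BIRC2, GADD45B and SOCS3 to what replicates 1 and 2 gave unblocked.

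CCL2 stayed lower in copper in all 26 alternatives (-1.19 to -0.798). CXCL8 (-0.528 to -0.0093), TNFAIP3 (-0.217 to -0.063), NFKB2 (-0.197 to -0.0287) and CXCL1 (0.0159 to 0.422) also kept their sign, with both ends of each range from leaving out 1 library. In replicates 1 and 2 alone the sign changed for IL6 (-0.302), NFKBIA (-0.0166), RELB (-0.0968), NFKB1 (0.0001), TNIP1 (-0.0625), TNFRSF1A (-0.0349), RBCK1 (-0.0999), SOD2 (0.0165) and JUN (-0.0179). Genes near 0 changed sign with scaling: IL32, IRAK1, SOD2 and ELAVL1 were at 0.0089, 0.0133, 0.0133 and 0.0204 with upper-quartile factors, at 0.0152, 0.0189, 0.0216 and 0.0262 with total counts, and at 0.0289, 0.0239, 0.0132 and 0.0278 with the block and total counts. IL32 and ELAVL1 were at 0.0016 and 0.0003 with limma-voom, 0.0015 and 0.0003 with the replicate block, 0.0014 and 0.0002 with the replicate 3 term, and 0.0005 and 0.0003 with the block in limma-voom. In the blocked fits that left out 1 pair, other genes changed sign: without replicate 1 these were CXCL2 (-0.272), TAX1BP1 (-0.0379), IRAK1 (0.0227), ELAVL1 (0.0143). Without replicate 2 these were TAX1BP1 (-0.0139), IL32 (0.1221), IRAK1 (0.0129), GADD45B (0.0014), SOD2 (0.0319). Without replicate 3 these were IL6 (-0.2854), NFKBIA (-0.007), RELB (-0.0946), NFKB1 (0.0006), TNIP1 (-0.0626), TNFRSF1A (-0.0354), RBCK1 (-0.0998), SOD2 (0.0136), JUN (-0.0181). Leaving out each library without the block changed the sign of these genes, given with their lowest and highest values: IL6 (-0.138 to 0.3555), CXCL2 (-0.1041 to 0.3424), NFKBIA (-0.0747 to 0.1782), RELB (-0.0502 to 0.1986), NFKB1 (-0.147 to 0.1109), TNIP1 (-0.0248 to 0.1146), TAX1BP1 (-0.0572 to 0.1986), IL32 (-0.1649 to 0.1156), LIF (-0.0017 to 0.2699), TNFRSF1A (-0.1054 to 0.1381), IRAK1 (-0.106 to 0.0601), RBCK1 (-0.2178 to 0.2554), GADD45B (-0.2245 to 0.0186), SOD2 (-0.1778 to 0.165), CFLAR (-0.0031 to 0.1607), IL6ST (-0.3613 to 0.0576), JUN (-0.0901 to 0.1713), FOSL1 (-0.1339 to 0.5566), ELAVL1 (-0.0753 to 0.0638). The cause was not tested.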

Other observations

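Of the ligands known to start NF-kB signalling, IL1A had 3 to 11 counts and IL1B 5 to 9 in the 6 libraries, both under the filter, while the related IL18 passed it with 28 to 49 counts. These genes were picked after their values were seen. CXCR1, a receptor for CXCL8, had 0 counts in every library, which allows up to 0.121 to 0.183 CPM (3 counts per library, counting error only). CXCR2, the other receptor for the neutrophil chemokines, had 0 to 2 counts, CCR2, the receptor for CCL2, 0 to 1, and the decoy receptor ACKR1 0 to 1.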
